A study of Mus musculus with 24 samples.

Results

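Mitochondrial ribosomal proteins are the nuclear-encoded proteins of the ribosome that works inside mitochondria, and their transcripts were followed in whole mouse lung over 5 postnatal ages. Genes were taken as members when their symbol was Mrpl or Mrps followed by digits, which gave 78 of the 19722 gene symbols on the array, 49 named for the large subunit (Mrpl) and 29 for the small subunit (Mrps). Each of the 78 protein-coding symbols of this form in the RefSeq table had a probe. Lungs came from healthy C57BL/6 mice with no treatment, at postnatal days 1, 4, 7 and 14 (5 samples each) and day 42 (4 samples). All 24 samples are described as biological replicates, whether each is a single animal is not stated, and p-values measure the spread between these samples. Total RNA was labelled with Cy3 and each sample was read on 1 single-colour array, where the brightness of a probe reports the level of its transcript. The markers of lung tissue (8 genes, among them Sftpc and Scgb1a1) were above background on every array. In whole tissue, fewer cells of a type and less RNA per cell cannot be told apart.

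The mitochondrial ribosome translates the few proteins encoded by mitochondrial DNA, all of them core subunits of the respiratory chain and the ATP synthase. Its proteins are encoded in the nucleus, made in the cytosol and imported. Some descend from bacterial ribosomal proteins, and others are specific to mitochondria. The lung goes from birth through the formation of alveoli in the weeks covered here, with cell division high at first and low in the adult.

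Promoter sequence is a feature of the members that their choice did not use. The RefSeq promoter table (GRCm38.p6, 250 bases before to 50 after each gene's start) held a window for 69 of the 78 members. The cores of 4 motifs were searched on both strands: the NRF1 consensus, CCGGAAG for GABPA and other ETS factors, AAGATGGC for YY1 and GGGCGG for SP1. No core contains another. NRF1 and GABPA are transcription factors known for binding near genes of mitochondrial proteins. The ETS core was present in 26 of the 69 member windows (37.7%), against 16.5% of the 12622 tested genes with a window. The NRF1 core was present in 13 (18.8%, against 9.36%) and the YY1 core in 12 (17.4%, against 4.44%). At least 1 of these 3 cores was present in 43 of the 69 (62.3%, against 26.7%). The SP1 core was present in 34 of 69 (49.3%), against 61.7% of the tested genes and 38.2% of all 27025 genes in the table. The NRF1, ETS and YY1 cores were present in 5.19%, 9.93% and 3.19% of all genes in the table. A match is a stretch of letters and not a measured binding site, and these shares carry no test. The sequences of 6 named members cover the 110 bases just before the start, 5′ to 3′ on the gene's strand, with the matched cores in capitals; they were chosen because a core lies in that stretch. Mrpl30 (chr1:37890367-37890476, plus strand), Mrpl12 (chr11:120484527-120484636, plus strand) and Mrpl44 (chr1:79775908-79776017, plus strand) hold the NRF1 core. Mrpl3 (chr9:105053158-105053267, plus strand), Mrpl51 (chr6:125192090-125192199, plus strand) and Mrps22 (chr9:98601680-98601789, minus strand) hold the ETS core, and Mrpl51 holds the SP1 core as well.
Mrpl30: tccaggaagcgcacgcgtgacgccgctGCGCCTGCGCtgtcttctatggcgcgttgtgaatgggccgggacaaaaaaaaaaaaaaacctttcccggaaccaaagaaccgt
Mrpl12: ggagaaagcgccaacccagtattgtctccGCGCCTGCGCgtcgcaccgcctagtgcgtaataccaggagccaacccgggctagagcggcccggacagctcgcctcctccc
Mrpl44: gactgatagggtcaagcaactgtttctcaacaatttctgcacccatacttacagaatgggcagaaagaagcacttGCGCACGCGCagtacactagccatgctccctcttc
Mrpl3: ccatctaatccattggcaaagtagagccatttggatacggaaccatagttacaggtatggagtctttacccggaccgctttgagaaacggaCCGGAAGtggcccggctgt
Mrpl51: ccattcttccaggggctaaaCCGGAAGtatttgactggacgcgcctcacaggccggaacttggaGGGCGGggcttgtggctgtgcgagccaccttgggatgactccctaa
Mrps22: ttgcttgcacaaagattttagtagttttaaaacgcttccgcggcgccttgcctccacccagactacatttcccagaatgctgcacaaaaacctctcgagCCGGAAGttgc

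The arrays did not all behave alike, and this touches every result on the members. The first principal component, holding 49.8% of the variance, separated 5 of the arrays from 19. The 5 were replicates 4 and 5 of day 1, replicates 1 and 3 of day 4 and replicate 4 of day 42. They had the lowest 75th percentiles of signal (476 to 978 intensity units, against 995 to 1652 on the others) and the smallest shares of spots above background (50.4% to 56.0%, against 57.0% to 79.7%). They are called the low-signal arrays here, the cause was not tested, and results are given with all 24 arrays and with the other 19. The 19 arrays leave 3 samples at days 1, 4 and 42 and 5 at days 7 and 14. Levels are log2 of the processed signal minus the 75th percentile of the array. Of the 78 members, 76 were above background on all 24 arrays and Mrpl1 on 22. Mrpl21 was above background on 1 array and was not tested, which left 77 members among 15895 tested genes. A gene counts as changed when its limma p, adjusted over all tested genes by Benjamini and Hochberg, was under 0.05.

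Over the 19 arrays the members were high at days 1 and 4, lower at day 7 and lowest at days 14 and 42. The median level over the members was 2.65 ± 0.15 (SD, n = 3) at day 1, 2.64 ± 0.08 (n = 3) at day 4 and 2.44 ± 0.16 (n = 5) at day 7. It was 2.21 ± 0.18 (n = 5) at day 14 and 2.34 ± 0.04 (n = 3) at day 42. Days 1 and 4 differed by less than their spread, as did days 14 and 42. Day 7 lay between, and its SD range met those of day 4 and day 14. The highest mean fell at day 1 for 40 members, at day 4 for 34, at day 7 for 1 and at day 42 for 2. The lowest mean fell at day 14 for 42 members, at day 42 for 28 and at day 7 for 7. Among all tested genes the highest mean fell at day 1 for 21.2%, day 4 for 18.8%, day 7 for 12.8%, day 14 for 18.3% and day 42 for 28.9%. Their lowest mean fell at day 14 for 13.7%, day 42 for 34.8% and day 7 for 15.1%, so the members' share with the lowest mean at day 42 is near the background. With all 24 arrays the medians were 2.98 ± 0.47 (n = 5), 2.85 ± 0.31 (n = 5), 2.44 ± 0.16 (n = 5), 2.21 ± 0.18 (n = 5) and 2.54 ± 0.40 (n = 4) from day 1 to day 42. In each of these 3 ages the low-signal arrays lay above the rest, at 3.39 and 3.56 on day 1, 3.097 and 3.26 on day 4 and 3.14 on day 42. The medians over the 19 arrays went from 2.81 ± 0.12 to 2.40 ± 0.05 for Mrpl and from 2.40 ± 0.07 to 2.10 ± 0.05 for Mrps between day 1 and day 42 (n = 3 each).

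**Figure D1:**
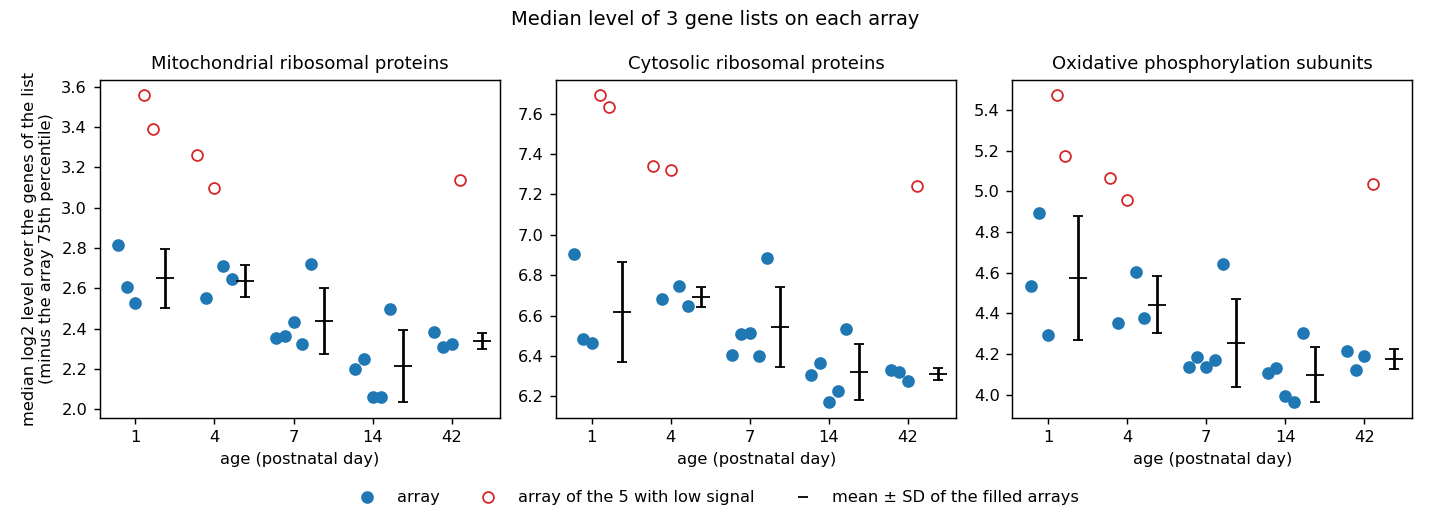
Median log2 level on each array of the mitochondrial ribosomal protein genes, the cytosolic ribosomal protein genes and the oxidative phosphorylation genes, against age in postnatal days. Filled points are the 19 arrays with their mean ± SD, and open points are the 5 low-signal arrays, whose member medians of 3.097 to 3.56 lie above the 2.06 to 2.81 of the others.

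Between day 1 and day 42 the change in the members went one way, down. With all 24 arrays 74 of the 77 had a difference below 0, 11 fell and 0 rose. The 11 are 14.3% of the members, beside 13.7% of all tested genes that fell (13.1% rose), so the share that fell is near the background. Without the 5 low-signal arrays 37 of the 77 fell (48.1%, beside 23.9% of all tested genes) and 0 rose (beside 22.7%). The 37 include all of the 11. The median difference of the members was -0.49 with 24 arrays and -0.34 with 19, where the medians over all tested genes were -0.06 and -0.02. On the 19 arrays each day 42 sample lay below each day 1 sample for 57 members, 74.0% of them. The same held for 30.3% of all tested genes, and 26.8% lay wholly higher at day 42, as did 0 members. With 24 arrays there was no such overlap for 4 members, 5.19% of them, beside 7.85% of all tested genes, with 8.69% wholly higher. The count with all arrays rests on single samples: it went to 44 when day 42 replicate 4 was left out, to 17 when day 1 replicate 3 was, and to 7 when day 42 replicate 2 was. It was 0 when the 9 arrays of these ages were fitted alone with limma, with 9 members at an unadjusted p under 0.05. Within slides 1, 2 and 3 the median member difference was -0.93, -0.76 and 0.83, where all tested genes had -0.29, -0.16 and 0.57. Each of these 3 values includes a low-signal array. The day 42 array of slide 3 is the low-signal one. Slides 1 and 2 hold the low-signal arrays of day 1, replicates 4 and 5, with member medians of 3.56 and 3.39.

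**Figure D2:**
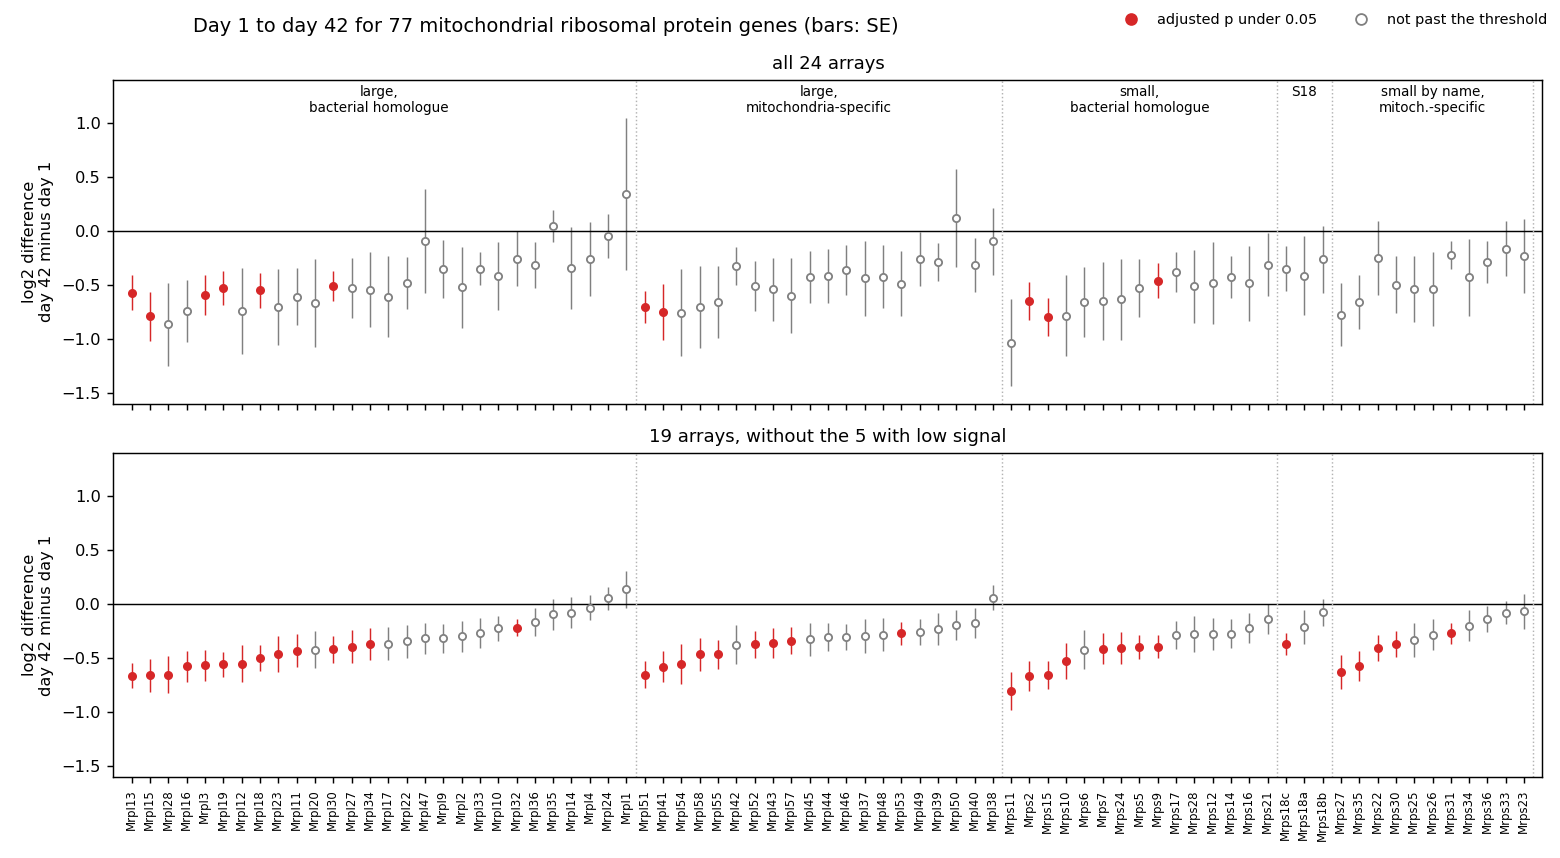
Log2 difference between day 42 and day 1 (bars: SE) for the 77 tested members, grouped by subunit and origin, with all 24 arrays above and with the 19 arrays below. Filled points passed the limma test (11 above and 37 below), and 74 of 77 points lie below 0 in each panel.

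In the large subunit, 6 of 28 tested members with a bacterial homologue fell with 24 arrays, and 14 with 19. The shares of all tested genes that fell were 13.7% and 23.9%. Mrpl15, a core protein of the subunit, measured 0.99, 0.59, 0.89, 1.59 and 1.68 on the day 1 arrays and 0.24, 0.08, 0.18 and 0.95 on the day 42 arrays. Only day 42 replicate 4, a low-signal array, reached into the day 1 range. Its difference was -0.79 ± 0.23 (SE, limma adjusted p = 0.0112), a 1.73-fold fall, and -0.66 ± 0.15 without the low-signal arrays (adjusted p = 0.00194). Mrpl3, which lies near the catalytic centre, measured 3.82, 3.73, 3.58, 4.10 and 4.26 at day 1 and 3.23, 3.12, 3.09 and 3.79 at day 42. It changed by -0.59 ± 0.19 (limma adjusted p = 0.0218), and by -0.57 ± 0.14 on the 19 arrays (adjusted p = 0.00371). Mrpl3 missed the threshold without day 1 replicate 5 (adjusted p = 0.0639) and without day 42 replicate 1, 2 or 3 (0.0573, 0.0776 and 0.0801). Mrpl13, another bacterial homologue, went the other way from most members on the low-signal arrays. It measured 3.43, 3.31, 3.30, 2.78 and 2.95 at day 1 and 2.70, 2.64, 2.71 and 2.27 at day 42, with no overlap. The difference was -0.57 ± 0.16 (limma adjusted p = 0.0102) with all arrays and -0.66 ± 0.11 (adjusted p = 0.000166) on the 19. Mrpl13 missed the threshold with quantile normalization (-0.43, adjusted p = 0.21) and in the authors' table (-0.39, adjusted p = 0.39). With median scaling Mrpl15 and Mrpl3 missed it (adjusted p = 0.0692 and 0.13).

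Mrpl30 measured 2.90, 2.85, 2.53, 2.93 and 3.15 at day 1 and 2.47, 2.27, 2.29 and 2.44 at day 42. Its groups did not overlap even with the low-signal arrays in, and it fell by 0.51 on the log2 scale (SE 0.14, limma adjusted p = 0.00728). Mrpl30 missed the threshold with median scaling (adjusted p = 0.0806) and in the authors' table, where it was at -0.33 (adjusted p = 0.157). Mrpl19 changed by -0.53 ± 0.15 (adjusted p = 0.0128) and Mrpl18 by -0.55 ± 0.16 (adjusted p = 0.0136). Mrpl19 missed the threshold without day 42 replicate 2 (adjusted p = 0.0619) and with median scaling (0.103). Mrpl10 and Mrpl12 form the stalk, the arm of the large subunit that recruits translation factors. Mrpl12 changed by -0.74 ± 0.40 with 24 arrays (limma adjusted p = 0.187), and fell on the 19 arrays by 0.55 (SE 0.17, adjusted p = 0.0146). Mrpl10 was at -0.23 ± 0.12 on the 19 arrays and did not pass (adjusted p = 0.122). Mrpl11, at the base of the stalk, and Mrpl23, at the exit of the peptide tunnel, each fell on the 19 arrays but not with 24, by 0.43 (SE 0.15, adjusted p = 0.0291) and 0.46 (SE 0.16, adjusted p = 0.0276). Mrpl16 and Mrpl28 did likewise, with -0.58 ± 0.15 (limma adjusted p = 0.00385) and -0.65 ± 0.17 (adjusted p = 0.00459).

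Of the 20 large-subunit members specific to mitochondria, 2 fell with 24 arrays and 9 with 19, beside 13.7% and 23.9% of all tested genes. Mrpl51 measured 3.73, 3.86, 3.61, 3.67 and 4.30 at day 1 and 3.09, 3.01, 3.15 and 3.28 at day 42, again with no overlap. It changed by -0.70 ± 0.15 (limma adjusted p = 0.000915), the smallest adjusted p among the members in this comparison, and by -0.65 ± 0.12 on the 19 arrays (adjusted p = 0.000407). It missed the threshold in the authors' table (-0.48, adjusted p = 0.078). Mrpl41 measured 3.57, 3.35, 3.21, 4.39 and 4.34 at day 1 and 2.86, 2.72, 2.81 and 3.70 at day 42. The low-signal arrays of both ages stood above the rest, and day 42 replicate 4 overlapped day 1. Mrpl41 changed by -0.75 ± 0.26 (limma adjusted p = 0.0336) and, on the 19 arrays, by -0.58 ± 0.14 (adjusted p = 0.00342). It missed the threshold without day 1 replicate 4 or 5 (0.0885 and 0.101) and without day 42 replicate 1, 2 or 3 (0.091, 0.115 and 0.0989). The same held with median scaling (0.115), slide block (0.0505) and replicate block (0.0577). A second Mrpl41 probe, also above background on all arrays, gave -0.10 (adjusted p = 0.719). Mrpl52 (-0.37 ± 0.13, limma adjusted p = 0.0247) and Mrpl58 (-0.46 ± 0.15, adjusted p = 0.0205) fell on the 19 arrays but not with 24. Mrpl58 is a peptidyl-tRNA hydrolase built into the ribosome that can release stalled chains. Mrpl44, related to double-strand RNA nucleases, was at -0.30 ± 0.13 and did not pass (adjusted p = 0.0722).

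In the small subunit, 3 of 15 members with a bacterial homologue fell with 24 arrays, and 8 with 19. Among all tested genes 13.7% and 23.9% fell. Mrps15 measured 2.14, 2.03, 1.90, 2.57 and 2.55 at day 1 and 1.502, 1.21, 1.38 and 1.68 at day 42, with a clear gap between the groups. It fell 1.74-fold (-0.80 ± 0.17, limma adjusted p = 0.00126), and by 0.66 (SE 0.13, adjusted p = 0.000611) on the 19 arrays. Mrps2 measured 0.33, 0.20, 0.10, 0.51 and 0.63 at day 1 and -0.39, -0.55, -0.43 and 0.18 at day 42. It changed by -0.65 ± 0.18 (limma adjusted p = 0.00769), and by -0.66 ± 0.14 on the 19 arrays (adjusted p = 0.000886). Its groups overlapped through day 42 replicate 4. A second Mrps2 probe, above background on all arrays, gave -0.38 (adjusted p = 0.237). Mrps2 missed the threshold when the probes were averaged (-0.52, adjusted p = 0.0503) and with median scaling (0.0531). Mrps9 was the remaining member past the test with 24 arrays (-0.46 ± 0.16, adjusted p = 0.0405). Mrps11 shows how much the low-signal arrays weigh. Its 3 other day 1 arrays measured 0.62, 0.48 and 0.43 and its 3 other day 42 arrays -0.25, -0.31 and -0.34, against 2.51, 1.76 and 1.39 on the low-signal arrays of these ages. Mrps11 missed the threshold with 24 arrays (-1.03 ± 0.40, limma adjusted p = 0.061) and had the largest fall of the members on the 19 (-0.81 ± 0.17, adjusted p = 0.00118). Mrps7, near the decoding site, fell on the 19 arrays but not with 24 (-0.41 ± 0.14, adjusted p = 0.0262). Mrps12, the homologue of the bacterial protein that streptomycin-resistance mutations alter, was at -0.28 ± 0.15 (adjusted p = 0.136). Mrps16 was at -0.22 ± 0.14 (adjusted p = 0.208).

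**Figure D3:**
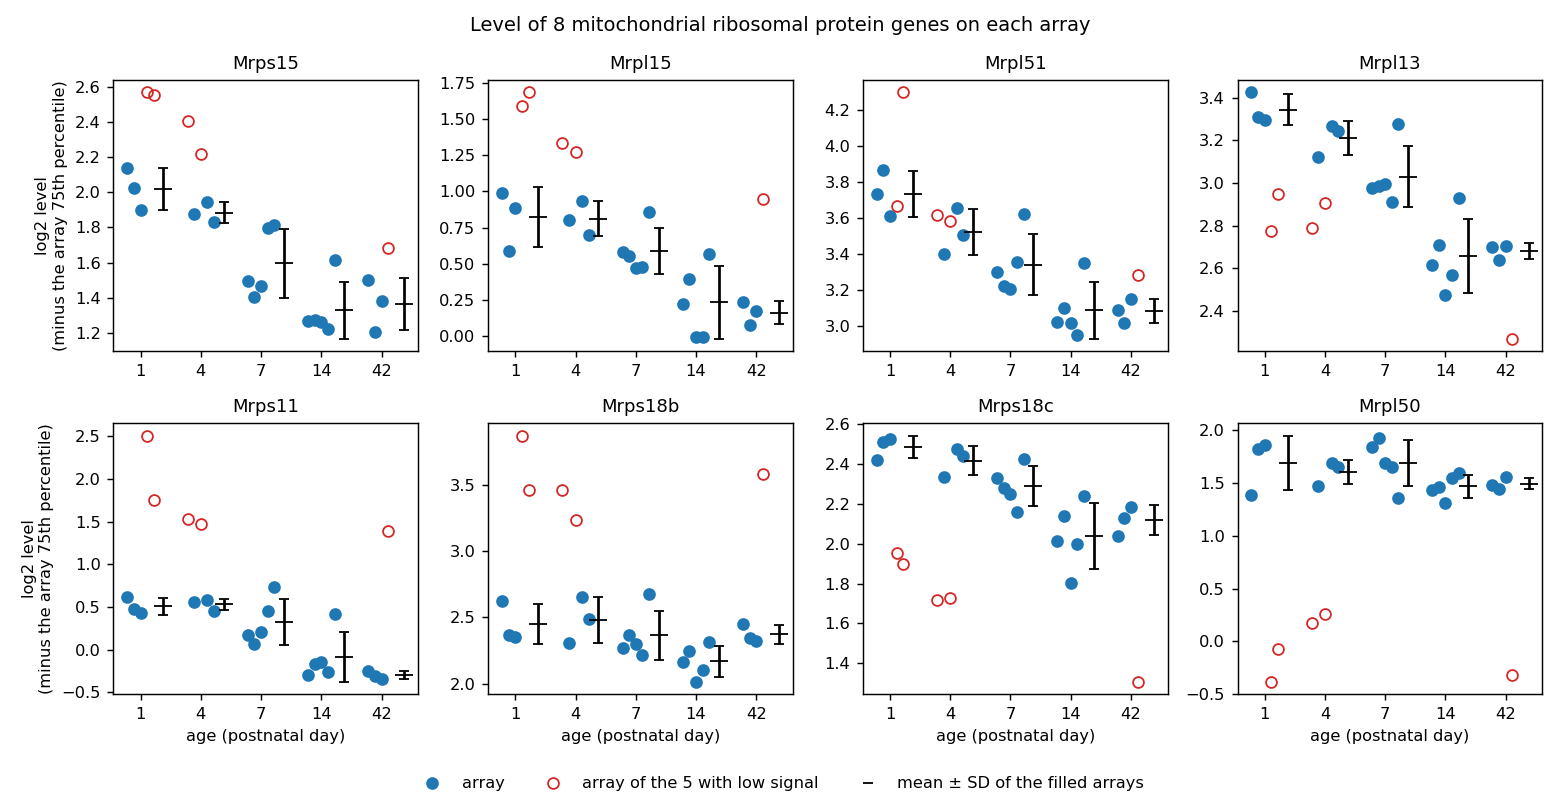
Log2 level of 8 members on each of the 24 arrays against age in postnatal days, with filled points for the 19 arrays (mean ± SD beside them) and open points for the 5 low-signal arrays. Mrps11 and Mrps18b lie higher on the open points, Mrpl13, Mrps18c and Mrpl50 lower.

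The other small-subunit names gave 0 of 11 past the limma test with 24 arrays (2 at an unadjusted p under 0.05) and 5 with 19. The background shares of all tested genes that fell were 13.7% and 23.9%. Mrps27, a pentatricopeptide repeat protein (-0.63 ± 0.15, limma adjusted p = 0.00299), and Mrps35 (-0.57 ± 0.14, adjusted p = 0.00279) fell most. Mrps22 fell by 0.41 (SE 0.12, adjusted p = 0.00912) on the 19 arrays, but with 24 it was at -0.25 ± 0.34 and moved to 0.0885 when day 42 replicate 4 was left out. Mrps30, which despite its name sits in the large subunit, fell on the 19 arrays (-0.37 ± 0.12, adjusted p = 0.0197). Mrps36, also known as a part of the 2-oxoglutarate dehydrogenase complex, was at -0.14 ± 0.12 (adjusted p = 0.358). Of the 3 homologues of bacterial S18, 1 fell on the 19 arrays. Mrps18c, in the small subunit, measured 2.42, 2.51 and 2.53 at day 1 and 2.04, 2.13 and 2.19 at day 42 on the 19 arrays. It fell there by 0.37 (SE 0.10, limma adjusted p = 0.00783). Mrps18b, also in the small subunit, measured 2.62, 2.37 and 2.35 and then 2.45, 2.34 and 2.32, at -0.08 ± 0.13 (adjusted p = 0.649). Mrps18a, which sits in the large subunit, was at -0.21 ± 0.16 (adjusted p = 0.282). The differences between these paralogues were not tested. With 24 arrays 0 of the 3 passed in limma, and 0 had an unadjusted p under 0.05.

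The steps between neighbouring ages were smaller. From day 1 to day 4 the median member difference was -0.12 with 24 arrays and -0.01 with 19, beside 0.04 for all tested genes on the 19. No member passed the limma test in either fit, and 0 had an unadjusted p under 0.05, where 0.0189% of all tested genes fell and 0.0377% rose with 24 arrays, and 0.00629% and 0.0755% with 19. From day 4 to day 7 it was -0.45 with 24 arrays and -0.16 with 19, with 70 and 76 of 77 members below 0. All tested genes had a median of -0.23 and -0.04 in this step. With limma 0 members passed, with 4 and 1 at an unadjusted p under 0.05, where 0.00629% and 0.0503% of all tested genes fell and 0% rose. The day 4 to day 7 shift of all genes depends on the scaling: its median was -0.37 with median scaling and -0.01 in the authors' table, and the member median minus it was -0.22 and -0.13.

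From day 7 to day 14 both groups keep all 5 arrays, so the differences are the same in both fits and only the spread estimate changes. The median of the members was -0.20, beside 0.02 for all tested genes, and 69 of 77 lay below 0. With 24 arrays 0 members passed in limma and 5 had an unadjusted p under 0.05, where 5.56% of all tested genes fell and 6.03% rose. With the 19 arrays 19 members fell (24.7%, beside 18.2% of all tested genes) and 0 rose (beside 20.4%). Mrps6 had the largest fall and measured 3.25, 3.17, 3.20, 3.29 and 3.68 at day 7 and 2.72, 2.67, 2.73, 2.39 and 3.25 at day 14. The highest sample of each age was replicate 5, and without it the groups are apart. Mrps6 changed by -0.57 ± 0.14 (limma adjusted p = 0.00505). Mrpl52 measured 4.11, 4.10, 3.95, 4.16 and 4.31 at day 7 and 3.62, 3.68, 3.50, 3.50 and 4.02 at day 14, with the same overlap. It changed by -0.46 ± 0.10 (adjusted p = 0.00184), and Mrpl13 by -0.37 ± 0.09 (adjusted p = 0.00353). Day 14 replicate 5 also differed in the cell division markers (their summed level in multiples of the array's 75th percentile), which summed to 40.2 on it and to 17.1 to 18.1 on the other day 14 arrays. Without it as well, 31 members fell (40.3%, where 21.7% of all tested genes fell), and the median member difference was -0.25. That fit left out the highest array of day 14 only. Day 7 replicate 5, with the highest member median of its age (2.72), stayed in. With all 5 arrays of each age in, groups overlapped for every one of the 77 members. Of all tested genes 8.16% had day 14 wholly below day 7 and 8.54% wholly above.

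From day 14 to day 42 no member passed in either fit. The median member difference was 0.25 with 24 arrays and 0.03 with 19, and all tested genes had 0.07 and -0.03. In limma 0 and 1 members had an unadjusted p under 0.05, where 1.51% of all tested genes fell and 2.19% rose with 24 arrays, and 6.76% and 6.77% with 19. From day 7 to day 42 the direction of the median depended on the arrays and the scaling. It was 0.06 with 24 arrays, -0.17 with 19, -0.01 with quantile normalization and -0.06 in the authors' table. Mrpl13 was the 1 member past the test with 24 arrays (-0.45 ± 0.16, limma adjusted p = 0.0447), 1.3% of the members, where 9.89% of all tested genes fell and 15.2% rose. It missed the threshold in each of the scaling alternatives and without any of day 7 replicates 1 to 5 or day 42 replicates 1 to 4 (adjusted p from 0.0522 to 0.156). On the 19 arrays 12 members fell (15.6%, beside 24.2% of all tested genes) and 0 rose (beside 22.3%). The largest falls were those of Mrps11 (-0.63 ± 0.16) and Mrps2 (-0.61 ± 0.12). Over any ages, the moderated F-test called 19 members (24.7%, beside 31.8% of all tested genes) with 24 arrays and 45 (58.4%, beside 53.9%) with 19. Of the 19, 18 were among the 45, and Mrpl39 was not.

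On the low-signal arrays most members were higher and some lower. Within each of days 1, 4 and 42, 66 of 77 members were higher on the low-signal arrays and 11 lower. Of all 77, 65 were higher at all 3 ages and 10 lower at all 3. Mrpl33 and Mrpl35 changed sign between ages. The mean shift over the 3 ages had a median of 0.95, where all tested genes had 0.56 and 65.9% of them were higher. The 10 were Mrpl1, Mrpl13, Mrpl18, Mrpl32, Mrpl42, Mrpl47, Mrpl50, Mrps18c, Mrps22 and Mrps33. Mrpl1, the homologue of the protein that forms the bacterial L1 stalk, measured -2.22, -1.50 and -1.54 on the other day 1 arrays and -4.07 and -4.19 on the low-signal ones. Mrpl1 was also far lower at day 4 (-4.65 and -4.76, against -1.75 to -1.95) and at day 42 (-4.60, against -1.46 to -1.75). Mrpl50 measured 1.39, 1.82 and 1.86 at day 1 against -0.39 and -0.08, and Mrpl47 1.25, 1.65 and 1.55 against -0.45 and -0.21. No low-signal array reached the others for these 3 genes. Mrpl12 went the opposite way, with 3.33, 3.46 and 2.88 at day 1 against 5.13 and 4.33. The small-subunit members with a bacterial homologue were all higher (15 of 15, median shift 1.07). The size of the shift depends on the scaling. The median was 0.42 with quantile normalization (59 of 77 higher) and 0.18 in the authors' table (50 of 77 higher, with 0.04 for all tested genes). These arrays were set apart by their values, so the shift is a description without a test, and its cause was not tested.

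**Figure D4:**
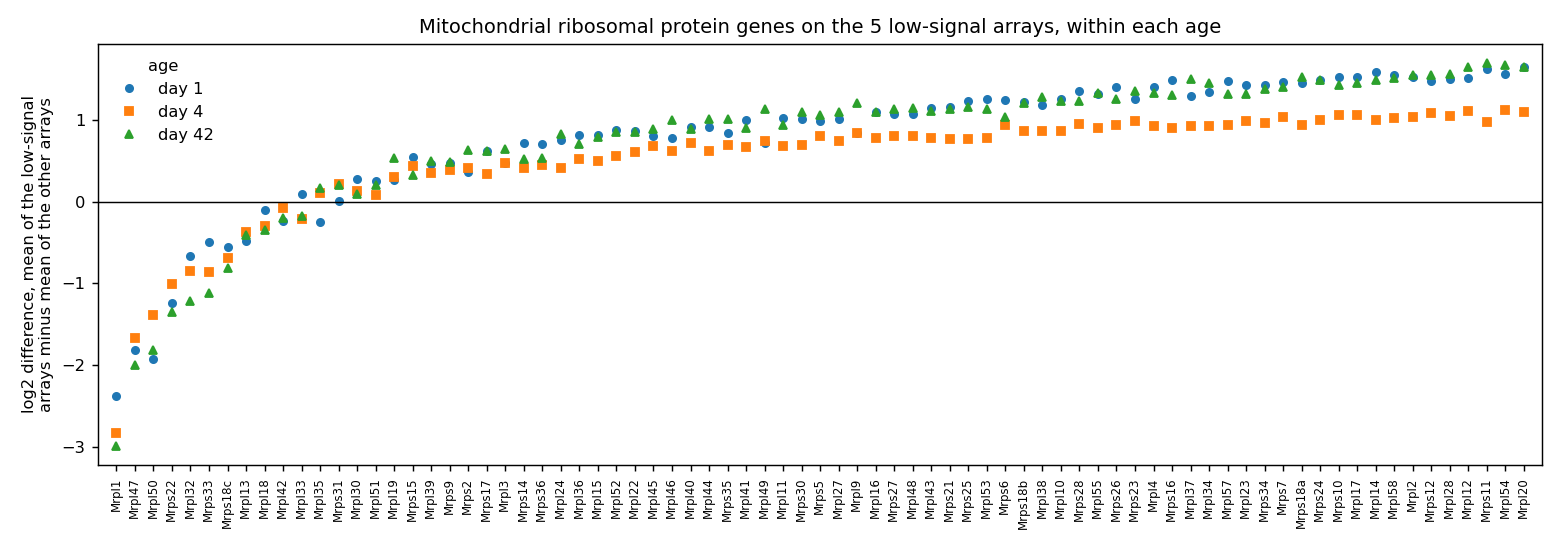
Mean log2 level on the low-signal arrays minus that on the other arrays of the same age, for each of the 77 tested members and for days 1, 4 and 42. At each age 66 members lie above 0, and Mrpl1, Mrpl47 and Mrpl50 lie lowest.

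The members varied together across the arrays. The correlation of a member with the median of the other members had a median of 0.96 over the 24 arrays and 0.88 over the 19. With the age means taken out it was 0.84 over the 19. All points share the scaling of their array, and the 24 include the low-signal arrays, so these are descriptions. Over the 24 arrays 7 members correlated below 0, and over the 19 only Mrpl1 did (-0.51). Mrps22 went from -0.57 over 24 to 0.74 over 19, and Mrps33 from -0.52 to 0.83. Mrpl38 (0.06), Mrpl50 (0.13) and Mrpl35 (0.21) followed the others least over the 19 arrays, apart from Mrpl1. Mrpl1, Mrpl24 and Mrpl38 were the 3 members above 0 from day 1 to day 42 on these arrays. Their differences were 0.14 ± 0.17, 0.05 ± 0.10 and 0.06 ± 0.12, with adjusted p from 0.552 to 0.718.

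**Figure D5:**
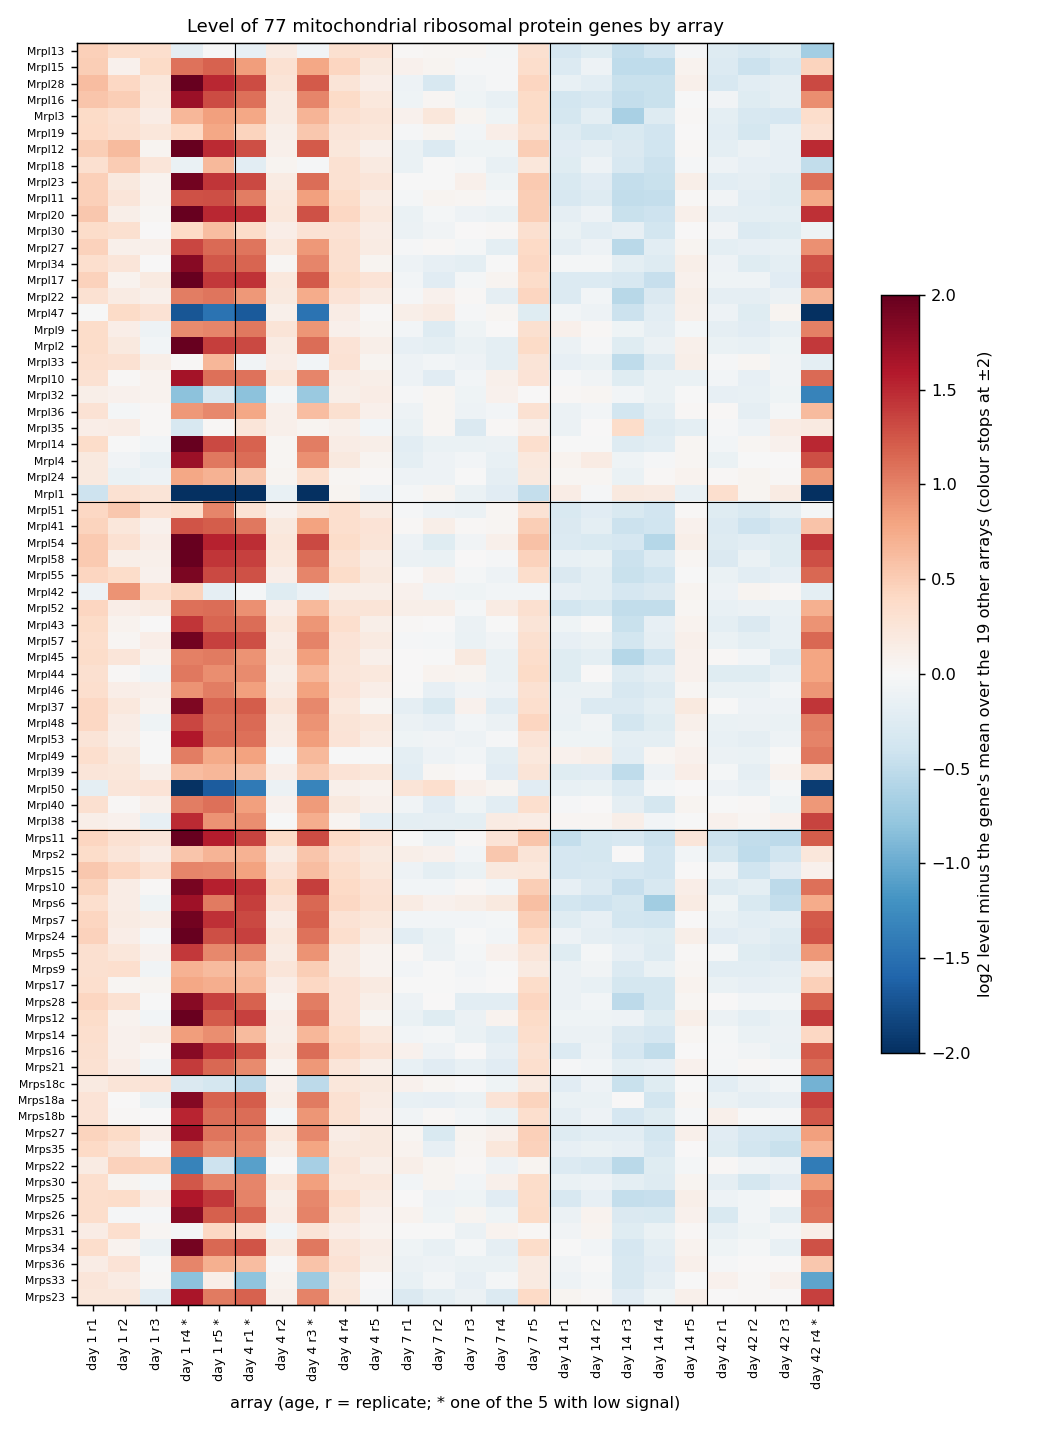
Log2 level of each of the 77 tested members (lines, grouped by subunit and origin) on each of the 24 arrays (columns, by age), minus the gene's mean over the 19 other arrays, with colour stopping at ±2. The 5 starred columns are the low-signal arrays, and day 7 replicate 5 and day 14 replicate 5 are redder than the other arrays of their ages.

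For 20 members a second probe gave a check on the first. The sign of the day 1 to day 42 difference was shared by both probes for 17 of the 20, and the values lay within 0.3 of each other for 14. The signs differed for Mrps14, Mrps25 (-0.54 and 0.24) and Mrpl50 (0.12 and -0.39). Mrpl22 passed the limma test with its second probe (-0.62, adjusted p = 0.0354) and not with the one used (-0.48, adjusted p = 0.158). Mrpl41 and Mrps2 passed only with the one used. The shift on the low-signal arrays had the same sign for 17 as well. Both probes of Mrpl47 (-1.83 and -1.90), Mrpl50 (-1.71 and -0.91) and Mrps33 (-0.82 and -0.996) were lower there. The exceptions were Mrps25 (1.05 and -2.31), Mrpl41 (0.85 and -0.29) and Mrps14 (0.55 and -0.25). For these 3 genes the direction of that shift depends on which probe stands for the gene. In Mrps14 the day 1 to day 42 difference was -0.43 with one probe and 0.36 with the other, and neither passed (limma adjusted p = 0.113 and 0.0955).

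Other parts of the mitochondrial translation machinery were read from lists that hold no Mrpl or Mrps gene. As the background for their counts, 23.9% of all tested genes fell and 22.7% rose from day 1 to day 42 on the 19 arrays. With 24 arrays these shares were 13.7% and 13.1%. From day 1 to day 42 on the 19 arrays, 1 of 5 ribosome proteins with other names fell, Dap3, a GTP-binding protein of the small subunit (-0.29 ± 0.11, limma adjusted p = 0.0469). Of 13 translation factors, 2 fell and 0 rose. They were Tufm, the factor that brings charged tRNA to the ribosome (-0.49 ± 0.14, adjusted p = 0.00778), and Tsfm, its exchange factor (-0.44 ± 0.12, adjusted p = 0.00521). Of 19 genes for charging mitochondrial tRNA 9 fell, among them Ears2, the glutamate tRNA synthetase (-0.74 ± 0.16, adjusted p = 0.00149). Of 20 genes for assembly and rRNA modification 3 fell and 1 rose. Mrm3, a methyltransferase for the large rRNA, changed by -0.49 ± 0.13 (adjusted p = 0.00399). Of 8 genes for mitochondrial transcription and RNA stability 2 fell, Supv3l1 (-0.50 ± 0.15, adjusted p = 0.0112) and Slirp (-0.36 ± 0.12, adjusted p = 0.0233). With 24 arrays 0, 0, 3, 1 and 0 genes of these 5 lists fell in limma and 0 rose, with 0, 1, 5, 2 and 1 at an unadjusted p under 0.05. Of 8 regulators of nuclear genes for mitochondria, 1 fell on the 19 arrays. It was Nrf1 (-0.39 ± 0.11, limma adjusted p = 0.00553), which with 24 arrays was at -0.56 ± 0.27 (adjusted p = 0.147). Gabpa (-0.14 ± 0.19, adjusted p = 0.558) and Yy1 (0.01 ± 0.10, adjusted p = 0.955) did not pass.

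The cytosolic ribosomal proteins and the nuclear subunits of oxidative phosphorylation were measured beside the members. On the 19 arrays the day 1 to day 42 median was -0.26 for 82 cytosolic ribosomal genes, of which 21 fell and 0 rose. It was -0.41 for 81 oxidative phosphorylation genes, of which 44 fell and 0 rose, and -0.34 for the 77 members, of which 37 fell. Of all tested genes 23.9% fell and 22.7% rose in this comparison. From day 7 to day 14, 20 of the cytosolic genes, 3 of the oxidative phosphorylation genes and 19 of the members fell. In that step 18.2% of all tested genes fell and 20.4% rose. The differences between the lists were not tested. On the low-signal arrays 70 of the 82 and 68 of the 81 were higher, with median shifts of 0.92 and 0.96 beside 0.95 for the members.

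Markers of dividing cells and of other cell types moved over the same ages, and their part in the results was not tested. All 14 genes of cell division fell from day 1 to day 42 (median -3.17 with 24 arrays). Their summed level, in multiples of the array's 75th percentile, was 106 to 129 at day 1, 70.9 to 79.3 at day 4, 55.2 to 63.7 at day 7, 17.1 to 40.2 at day 14 and 19.1 to 23.2 at day 42. Aurkb was above background on 0 arrays at day 42. The 6 macrophage markers on the array summed to 42.5 to 93.5 at day 1 and 214 to 251 at day 42. The 5 tested red cell precursor markers fell, from sums of 436 to 1394 at day 1 to 255 to 578 at day 42 with all arrays; on the 19 the day 1 sums were 436 to 585 and the day 42 sums 255 to 369. At day 42 Epb42 was above background on 0 arrays. Adipocyte markers summed to 0.418 to 1.42 at day 1, with Lep above background on 0 arrays, and to 13.1 to 308 at day 42. Cardiac muscle markers summed to 47.3 to 1126 at day 1 and 78.6 to 203 at day 42. The day 1 maximum was replicate 2, which was also the highest day 1 array for skeletal muscle (129) and brown fat (37.6). Its member median of 2.61 lay between those of the other 2 day 1 arrays among the 19 (2.53 and 2.81). Its oxidative phosphorylation median of 4.89 was above those of the same 2 arrays (4.54 and 4.29). The part of replicate 2 in the day 1 to day 42 fall of that list was not tested. Day 4 replicate 4 had the largest brown fat sum of the 24 arrays (70.0, other day 4 arrays 1.93 to 6.46), an adipocyte sum of 8.74 and the highest member median (2.71) of the 3 day 4 arrays among the 19. Brown fat markers summed to 2.28 to 37.6 at day 1 and 5.54 to 14.1 at day 42, with Elovl3 above background on 0 arrays at every age. Skeletal muscle markers summed to 10.2 to 129 and 7.23 to 19.2, with Myh4 above background on 0 arrays at both ages.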

How the data were processed

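Whole lung RNA of 24 mouse samples was read on single-colour arrays on 3 slides of 8, with every age on each slide. The authors deposited scans whose processed signal is an intensity with background subtracted, which per the file headers came from version 10.7.3.1 of Agilent's Feature Extraction (10.7.1.1 per the submitters' processing notes). The deposited scans also give median spot and background intensity, and other values of 0 or 1 that flag spots above background, saturated or of uneven signal. The authors also deposited a table of log2 values, whose method is not given in the sources used here. Here log2 of the processed signal was taken minus each array's 75th percentile, without control and non-uniform spots. Spots of a probe were averaged, and the probe with the highest mean stood for its gene. Probes were named by RefSeq transcript (GRCm38.p6). Genes above background on at least 4 arrays were tested by limma 3.58.1 (R 4.3.3), each age having its own mean (prior degrees of freedom 2.97), an adjusted p threshold of 0.05 and a moderated F-test for any age. The number of arrays limits the precision.

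The members and lists were chosen with earlier results of these data known, and leaving out the 5 or 6 arrays was chosen after seeing the data. Named members are the largest changes past the test, the 10 smallest F-test p-values and members listed by role. A few others were named after their values were seen: Mrps11, Mrps6, Mrps27, Mrps35, Mrpl28, Mrpl38, Mrpl24, Mrpl22, Mrpl33, Mrpl35 and Mrpl39. The same holds for Mrps9, Mrps14, Mrps25, Gabpa, Yy1 and those lower on the low-signal arrays. The planned normexp correction used the median spot signal, since the scans analysed give no mean signal. Other alternatives changed the scaling (quantile, median, the authors' table), the filter (none, or above background throughout), the probe rule (probes averaged) or the model (slide block, replicate block, array weights, only the ages compared, each array left out). The code was tested on simulated data. Replicate numbers did not pair samples (mean correlation of same-numbered samples -0.02, of others 0.02). The title of 1 day 14 sample, which disagrees with its source name on the replicate number, was followed.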

Additional observations from a re-analysis of the deposited data

Results flagged for a closer look

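In a group of 4 or 5 samples a value was set apart when its gap to the nearest sample, divided by the range of the group, was above Dixon's 95% value (0.829 for 4 samples, 0.71 for 5). Of 135 groups of values checked 29 had such a sample, where chance gives about 1 in 20. Groups of values share their arrays, so they are not independent. Day 42 replicate 4 had already been set apart by its values, so the chance rate does not apply to its cases.

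At day 42 it was replicate 4, the low-signal array, each time. There the member median was 3.14. It was highest for Mrpl41 (3.70), Mrpl16 (2.77), Mrpl52 (4.70), Mrpl10 (2.37), Mrpl12 (4.32), Mrpl44 (2.36), Mrpl58 (5.28) and Mrpl23 (5.51). It was also highest for Mrps18a (3.43), Mrps18b (3.58), Mrps7 (4.25), Mrps12 (4.23), Mrps16 (4.86), Mrps36 (2.20) and Mrps30 (2.72). It was lowest for Mrpl13 (2.27), Mrps18c (1.30) and Mrps22 (-0.80).

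At day 7 replicate 5 was the highest, with a member median of 2.72. The members concerned were Mrpl15 (0.86), Mrpl41 (3.62), Mrpl13 (3.28), Mrpl12 (3.33), Mrpl11 (3.82), Mrpl58 (4.46), Mrps7 (3.52) and Mrps36 (1.84). At day 14 replicate 5 was the highest for Mrps15 (1.61).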

How the results depend on the processing

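The spread of the member median between replicates (SD 0.33) includes the low-signal arrays and is about as large as the medians of the differences, so a smaller move shows no stability. From day 4 to day 7 the median went from -0.45 to -0.14 in the authors' table, and from day 7 to day 42 it turned from 0.06 to -0.17 without the 5 low-signal arrays. In the counts that follow, percentages in brackets are the shares of all tested genes that fell. From day 1 to day 42 (11 members) the count, all of falls, was 26 with quantile normalization (16%), 4 with median scaling (10.4%) and 34 in the authors' table (18%). It was 49 with array weights (26.4%, with 52% called in either direction) and 0 with only the ages compared (6.68%). Without the 5 low-signal arrays it was 37 (23.9%), and without the 6 arrays 43 (25%). From day 7 to day 14 (0 members) the count was 6 with quantile normalization (9.05%), 11 in the authors' table (11.1%) and 9 with only the ages compared (14.1%), all falls. Array weights gave 36, of which 32 fell and 4 rose (26.9%, with 60.3% of all tested genes called in either direction). Without the 5 and 6 arrays the count was 19 (18.2%) and 31 (21.7%), all falls. From day 4 to day 7 (0) array weights gave 52, all falls (18.5%, with 28.1% of all tested genes called in either direction). From day 14 to day 42 (0) array weights gave 3, all rises, with 31.3% of all tested genes called in either direction. From day 7 to day 42 (1) the count was 0 with normexp, median scaling, no filter, slide block, replicate block and only the ages compared (7.41% to 10%). These settings had 2 members at an unadjusted p under 0.05 in limma, and median scaling 0. The count was 3 with quantile normalization (13.1%) and 6 in the authors' table (15.5%), all falls. Array weights gave 26, of which 24 fell and 2 rose (31.2%, with 62.6% called in either direction). Without the 5 and 6 arrays the count was 12 (24.2%) and 16 (25.2%), all falls. For any age (19) the count was 37 with quantile normalization, 42 in the authors' table, 12 with slide block, 70 with array weights, and 45 and 48 without the 5 and 6 arrays. Of all tested genes 31.8% were called for any age with all 24 arrays and 53.9% without the 5. The shares for the other settings are not given here, so their counts have no background beside them. Leaving out 1 array gave 7 to 44 members from day 1 to day 42. It gave 0 to 1 from day 7 to day 42 and 11 to 48 for any age. These counts too have no background beside them. Replicate block gave 9 members from day 1 to day 42 (12.1%), as did slide block (12.8%). The replicate numbers used as blocks did not pair the samples. Within slide 3 the member median from day 14 to day 42 was 1.02, against 0.25 in all. Mrps22 ranged from -0.55 (without day 1 replicate 4) to 0.0885 (without day 42 replicate 4), against -0.25 with all arrays. The causes were not tested.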
